A study of Homo sapiens with 6 samples.

Results

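The 31 genes described here are transcriptional targets or regulators of p53, chosen by name. They split by function into 6 genes of cell cycle arrest, 10 of apoptosis, 4 of DNA repair, 5 that feed back on p53 and 6 of metabolism and stress. Transcripts of all 31 genes were found among the 36415 genes of the tables, and all 31 passed the low-count filter together with 15765 genes in all. Their mRNA was measured in HCT116, a human cell line established from a colorectal carcinoma, in which MCM2 bears a mini auxin-inducible degron (MCM2-mAID). MCM2 is a subunit of the helicase loaded on DNA in G1 phase, and auxin sends the tagged protein to the proteasome. There were 3 libraries from MCM2-mAID cells given auxin (500 µM 3-indoleacetic acid) and 3 libraries from MCM2-mAID cells given DMSO, the solvent. Per the study's methods auxin was given for 6 h, and both groups were synchronised by repeated thymidine arrest and release, stained with a live DNA dye and sorted from the left part of the G1 peak. Both groups carried the degron and cells without it were not analysed here, so auxin itself and loss of MCM2 cannot be told apart for any gene below. The question was which genes of the p53 pathway differed in mRNA level after auxin, compared with the solvent.

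p53 is a transcription factor that is kept scarce by the ubiquitin ligase MDM2 and its partner MDM4 and is stabilised mainly at the protein level after DNA damage, replication stress or ribosomal stress. It binds pairs of a short element and switches on genes that halt the cell cycle, repair DNA, protect metabolism or trigger cell death, and several of its targets, MDM2 first among them, turn p53 off again. mRNA of these targets is therefore the usual readout of p53 activity.

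Promoter sequences are shown for BTG2 and GDF15, both of which rose, and for MDM2, whose downstream promoter is the p53-responsive one. The windows were taken from RefSeq (GRCh38.p14) and run from 250 bases before to 50 bases after an annotated start, 5′ to 3′ on the gene's strand. The table held 36 windows for 25 of the 31 genes. It had none for PHLDA3, TNFRSF10B, FBXO22, GADD45A, TP53INP1 and RRM2B. They were searched for the p53 consensus element of 10 bases without mismatch, and for adjacent pairs of it (20 bases) with up to 2 mismatches and the conserved C and G of each element intact. The consensus is its own reverse complement, so a search of either strand covers both. Capitals mark a matching pair. The BTG2 window lies at chr1:203305269-203305568, the GDF15 window at chr19:18385908-18386207 and the MDM2 window at chr12:68808767-68809066, all on the plus strand, and the MDM2 window begins inside the first intron of the transcripts from the upstream promoter.
BTG2: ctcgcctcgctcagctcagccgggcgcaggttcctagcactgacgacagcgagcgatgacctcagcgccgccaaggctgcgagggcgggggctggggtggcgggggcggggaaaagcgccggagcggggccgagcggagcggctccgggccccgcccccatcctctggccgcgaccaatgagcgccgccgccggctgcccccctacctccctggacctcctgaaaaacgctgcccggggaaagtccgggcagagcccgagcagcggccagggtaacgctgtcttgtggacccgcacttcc
GDF15: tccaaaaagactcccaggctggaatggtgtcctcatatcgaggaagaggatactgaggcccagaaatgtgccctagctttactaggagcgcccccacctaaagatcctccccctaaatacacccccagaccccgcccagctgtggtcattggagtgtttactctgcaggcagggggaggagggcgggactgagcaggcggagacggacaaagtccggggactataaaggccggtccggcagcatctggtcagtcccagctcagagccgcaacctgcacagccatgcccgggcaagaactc
MDM2: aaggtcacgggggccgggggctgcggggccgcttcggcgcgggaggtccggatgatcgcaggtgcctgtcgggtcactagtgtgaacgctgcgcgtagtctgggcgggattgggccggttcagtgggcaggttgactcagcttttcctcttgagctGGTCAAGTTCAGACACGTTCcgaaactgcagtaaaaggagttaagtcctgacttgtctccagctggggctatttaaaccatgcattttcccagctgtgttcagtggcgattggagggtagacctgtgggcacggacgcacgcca

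The windows of BTG2 and GDF15 held no match of either kind. The search allowed no spacer within a pair and did not reach beyond the windows. Sites with a spacer, with more mismatches or further away would be missed, so no match does not mean that a gene lacks a p53 site. In the DDB2 window, for example, elements without mismatch that were parted by a spacer were not counted as a pair. In the MDM2 window the pair began 94 bases before the start. A second MDM2 window, shifted by a few bases, held the same pair. Pairs were also found in windows of FAS (chr10:88991181-88991480, 122 bases before the start), DDB2 (chr11:47214724-47215023, 5 bases before) and AEN (chr15:88621090-88621389, 34 bases before), all on the plus strand. They are shown as the pairs that the fold changes below can be set beside.
FAS: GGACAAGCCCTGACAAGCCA
DDB2: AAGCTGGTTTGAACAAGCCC
AEN: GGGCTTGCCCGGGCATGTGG

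A pair thus occurred in 5 of the 36 windows, of 4 genes, against 0.285% of all 35116 windows of this length. A single element without mismatch occurred in 6 of the 36 windows, those of PLK2, SESN1, FAS, DDB2, AEN and FDXR, against 6.63% of all windows. The genes were chosen as p53 targets, so these shares are a description only. Of the 4 genes with a pair, 0 were called by edgeR: their log2 fold changes were 0.24 for FAS, 0.15 for DDB2, 0.10 for MDM2 and -0.01 for AEN, and FAS, DDB2 and MDM2 had an unadjusted p under 0.05. DESeq2 and limma called 0 of these 4 as well, and the shares called over all genes are given below.

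Auxin libraries held between 62.8 and 66.8 M estimated counts and DMSO libraries between 52.5 and 68.4 M. Of the 15765 genes tested, 4.32% were called higher and 2.46% were called lower in auxin, where called means an adjusted p under 0.1. Each of the 8 epithelial markers examined was at 1 CPM or more in at least 1 library, and their summed level was 4300 to 4503 CPM in auxin and 4662 to 5141 CPM in DMSO. Of that sum, KRT8 alone averaged 2254 CPM in auxin and 2527 CPM in DMSO, while VIL1 was under 1 CPM in every auxin library. Of 8 fibroblast and 8 leukocyte markers, 7 and 7 were under 1 CPM in all libraries. The exceptions were COL1A1 at 26.7 to 39.0 CPM and CD68 at 13.5 to 16.2 CPM. CPM here denotes counts scaled to a common library size with TMM correction. On the second principal component, which held 22.6% of the variance, replicate 1 stood apart from replicates 2 and 3 in both groups. Auxin replicate 1 lay at 17.2 and DMSO replicate 1 at 21.4, and the other 4 libraries lay between -12.1 and -8.36.

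The p53 pathway was expressed in both groups. On a scale per transcript length (TPM), CDKN1A, GDF15 and PLK2 had the highest levels averaged over all 6 libraries, although in DMSO alone GDF15 lay below BAX as well. CDKN1A, which encodes the CDK inhibitor p21, averaged 230.2 ± 29.4 TPM in auxin and 199.7 ± 29.7 TPM in DMSO (mean ± SD of 3 libraries each). GDF15 averaged 250 ± 22.4 TPM in auxin and 147 ± 24.2 TPM in DMSO, so that it was above CDKN1A in auxin and below it in DMSO by less than the summed SDs in either group. BAX and FDXR had means of 140 to 154 TPM in both groups and differed from each other by less than their summed SDs. MDM2 averaged 41.6 ± 0.39 TPM in auxin and 40.5 ± 2.33 TPM in DMSO. The lowest levels were those of SESN2 (3.40 ± 0.15 TPM in auxin, 3.12 ± 0.04 TPM in DMSO), TP53INP1 (3.94 ± 0.55 TPM in auxin, 2.34 ± 0.08 TPM in DMSO) and SPATA18, which stayed under 0.2 TPM on average in both groups. SPATA18 had 10, 7 and 10 estimated counts in auxin and 17, 7 and 17 in DMSO, so a difference in it was not detectable at this depth.

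**Figure D1:**
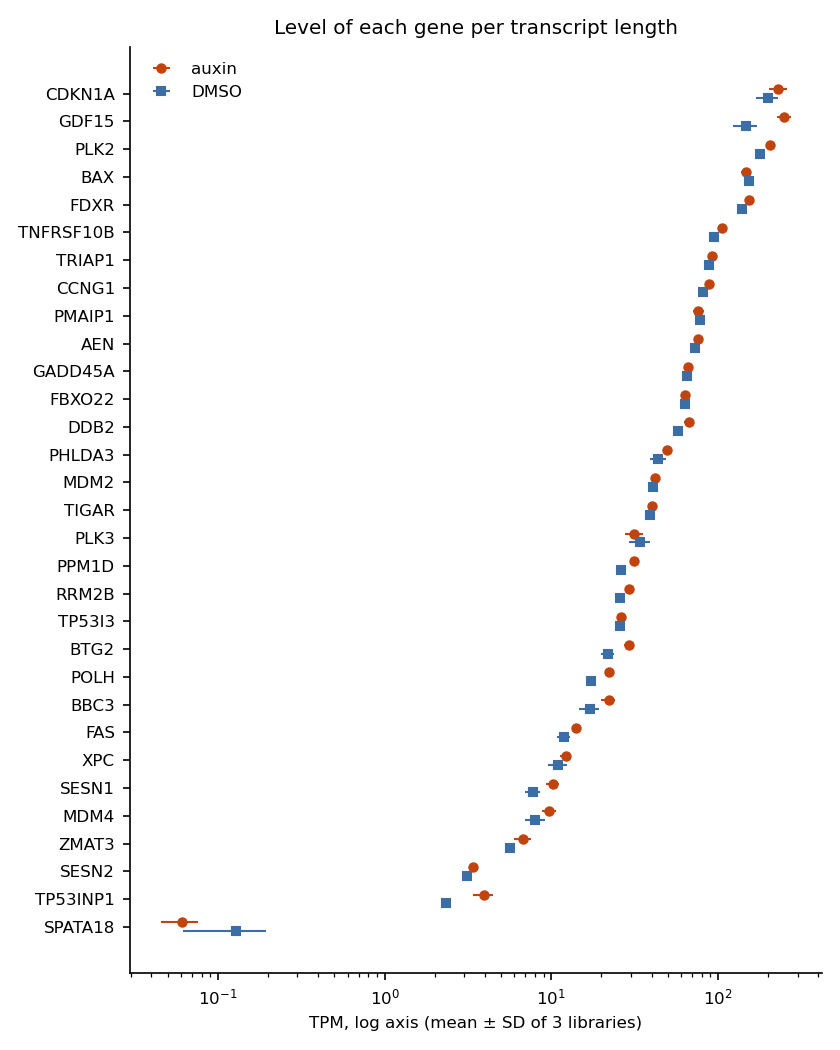
Level of each of the 31 genes in TPM on a log axis, with circles for auxin and squares for DMSO and bars for the SD of 3 libraries, ordered by the mean over all libraries. CDKN1A, GDF15 and PLK2 lead and SPATA18 lies far below the rest, and within most genes the 2 groups sit close together.

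Few of the 31 genes passed the test between the groups. In edgeR, 3 of 31 rose (GDF15, BTG2 and TP53INP1) and 0 fell, against 4.32% of all tested genes called higher and 2.46% called lower. The count was 9 without auxin replicate 1 and 1 without auxin replicate 2 or DMSO replicate 2. It was 2 without auxin replicate 3 or DMSO replicate 3, and 3 without DMSO replicate 1. Over all genes, 7.13% were called without auxin replicate 1 and 1.15% without auxin replicate 2, against 6.78% with all libraries. With all libraries, an unadjusted p under 0.05 was reached by 12 of the 31, all higher in auxin. Of all 15765 genes tested, 1817 reached it higher and 1507 lower in auxin. The median log2 fold change (auxin minus DMSO) was 0.07 over the 31 genes and 0.01 over all genes tested, and 21 of the 31 (67.7%) lay above 0, as did 53.5% of all genes. DESeq2 called 6 of the 31 higher and 0 lower (background 5.04% and 5.35%), adding PLK2, SESN1 and BBC3. Limma on log2(TPM + 1) called 6 higher and 0 lower (background 2.66% and 0.203%), adding PLK2, POLH and PPM1D. The libraries of the groups did not overlap for 10 of the 31 genes. In 8 of them auxin was higher (GDF15, BTG2, TP53INP1, PLK2, FAS, MDM2, RRM2B and SESN2) and in 2 it was lower (BAX and TP53I3), and the background was 13.7% of genes higher and 13% lower, against 8 and 2 of the 31.

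**Figure D2:**
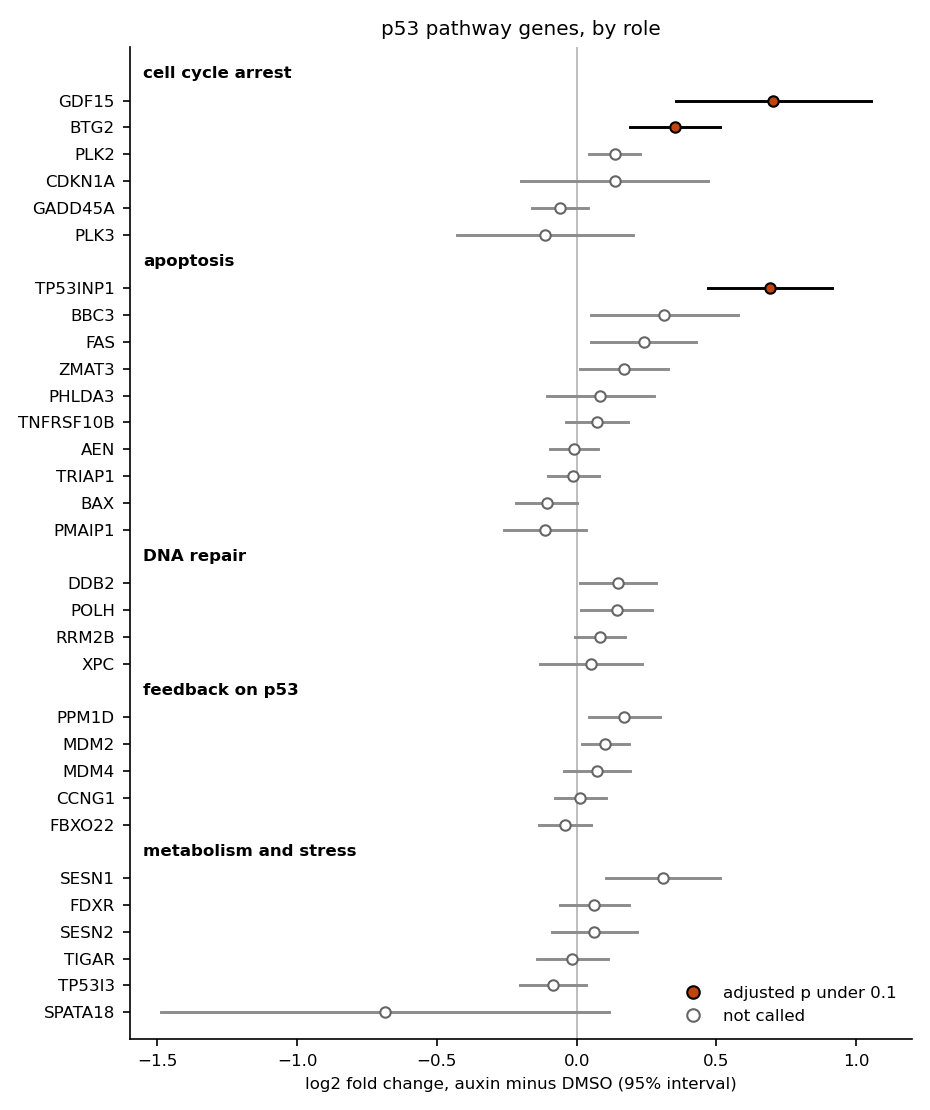
Log2 fold change (auxin minus DMSO) of each gene with its 95% interval, by role, with filled points for an adjusted p under 0.1 in edgeR. Only GDF15, BTG2 and TP53INP1 are filled, and SPATA18 has by far the widest interval.

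Among the 6 genes placed under cell cycle arrest, 2 rose and 0 fell (background 4.32% and 2.46%), with a median log2 fold change of 0.14. The 2 were BTG2 and GDF15, and the count depends on the placing of GDF15, a cytokine, in this group. GDF15, a secreted cytokine of the TGF-beta family induced by p53 and by other stress pathways (chromosome 19, 18374731 to 18389176, hg38), had 176, 196 and 213 CPM in auxin and 94.8, 130.2 and 134 CPM in DMSO. Every auxin library was above every DMSO library, with a gap between 134 and 176 CPM. Its log2 fold change was 0.70 (1.63-fold, adjusted p = 0.0673, SE 0.14). The call was lost when any of auxin replicates 1, 2 and 3 or DMSO replicates 2 and 3 was left out, with adjusted p = 0.114, 0.235, 0.234, 0.126 and 0.119 in that order, while the log2 fold change stayed between 0.55 and 0.79. Without DMSO replicate 1, the lowest library, it was 0.55 (adjusted p = 0.00743).

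BTG2, an antiproliferative partner of the CCR4-NOT deadenylase (chromosome 1, 203305491 to 203309602), had 53.6, 58.1 and 62.0 CPM in auxin and 43.1, 43.1 and 49.9 CPM in DMSO. The groups did not overlap. Its log2 fold change was 0.35 (1.28-fold, adjusted p = 0.0357, SE 0.07), and the call was lost when replicate 2 of auxin (adjusted p = 0.154) or of DMSO (0.134) was left out. CDKN1A (chromosome 6, 36676460 to 36687337), whose product p21 blocks cyclin-dependent kinases, had 293, 345 and 384 CPM in auxin and 267, 302 and 360.5 CPM in DMSO. The groups overlapped over most of their range, and CDKN1A was not called (log2 fold change 0.14, SE 0.14, 95% interval -0.20 to 0.47, adjusted p = 0.630). That interval holds a change of the size seen in BTG2 and ends below the size seen in GDF15. Each auxin library of CDKN1A was above the DMSO library of the same number. EdgeR with the replicate number as a block called CDKN1A (adjusted p = 0.00557), in a fit that called many more of all genes. Numbers were not shown to pair the libraries.

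Of the other 3 arrest genes, PLK2, a polo-like kinase of centriole duplication, had 309, 327 and 325 CPM in auxin and 295, 284 and 296 CPM in DMSO. Its groups did not overlap, and its log2 fold change of 0.14 (SE 0.04) just missed the threshold (adjusted p = 0.101), while DESeq2 called it (adjusted p = 0.0610). PLK3, a polo-like kinase of the stress response, and GADD45A, a stress protein that inhibits CDK1, had log2 fold changes of -0.11 (SE 0.13) and -0.06 (SE 0.05), with adjusted p of 0.679 and 0.483.

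**Figure D3:**
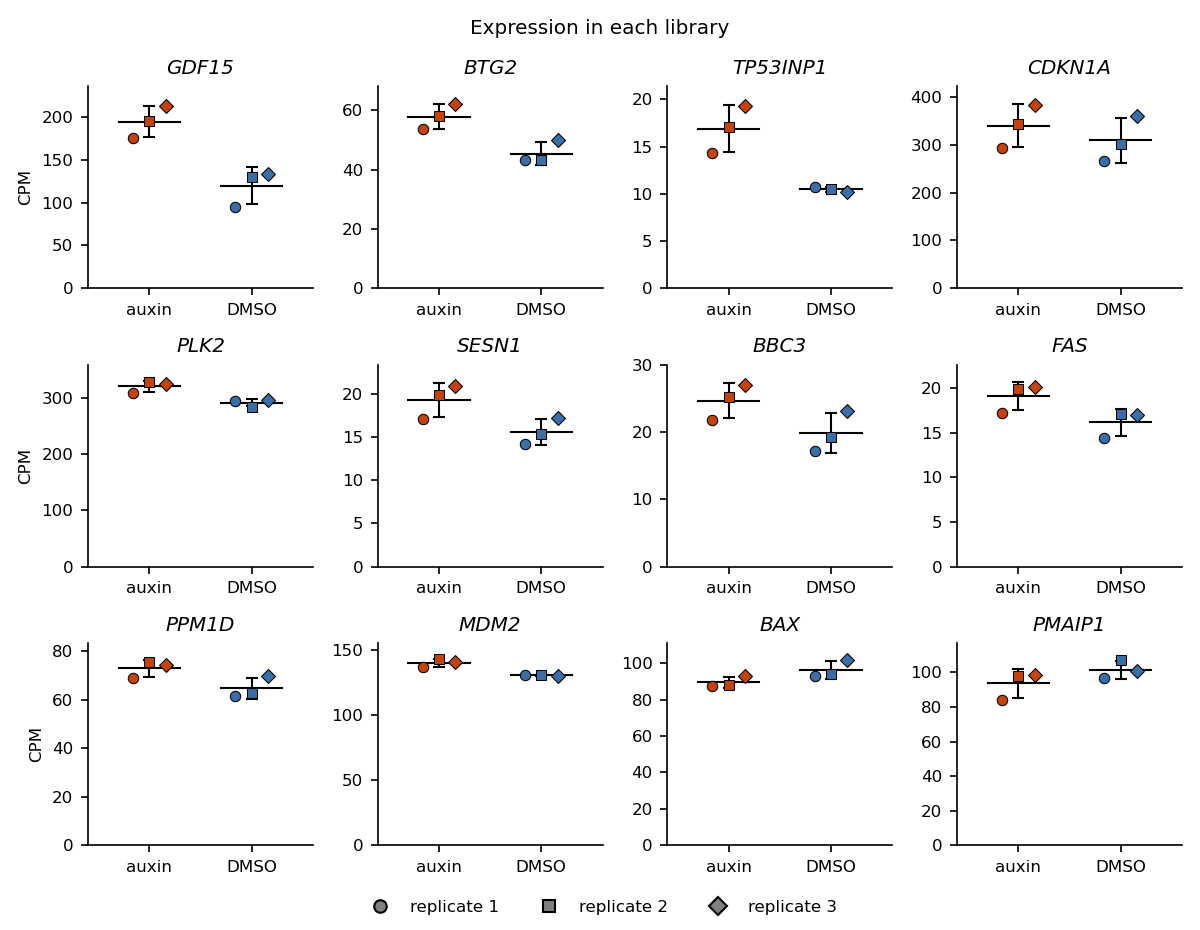
CPM of 12 genes in each library, auxin beside DMSO, with the symbol shape giving the replicate number, a line for the mean and a bar for the SD (n = 3). In GDF15, BTG2, TP53INP1, PLK2, MDM2, FAS and BAX the libraries of the groups do not overlap, with very narrow gaps in FAS and BAX. CDKN1A, SESN1, BBC3, PPM1D and PMAIP1 overlap.

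Among the 10 genes of apoptosis, 1 rose and 0 fell (background 4.32% and 2.46%), with a median log2 fold change of 0.08. The gene that rose was TP53INP1 (chromosome 8, 94925972 to 94949378), which encodes a nuclear and autophagic stress protein that assists p53. It had 14.3, 17.0 and 19.3 CPM in auxin and 10.7, 10.6 and 10.1 CPM in DMSO. The DMSO libraries lay within 1 CPM of each other, the auxin libraries spread over several, and the groups did not overlap. Its log2 fold change was 0.69 (1.62-fold, adjusted p = 0.00674, SE 0.10), and it was called in each of the 15 alternatives run, with log2 fold changes between 0.56 and 0.80 and adjusted p between 5.66e-08 and 0.0577. TP53INP1 overlaps NDUFAF6 on the other strand, and the strand setting of the counting is not given in the sources used here.

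Of the 3 classic effectors of the mitochondrial death pathway, edgeR called 0 and limma called 0. DESeq2 called BBC3, the only one with an unadjusted p under 0.05 in edgeR. The DESeq2 background was 5.04% of all genes higher and 5.35% lower. BBC3 lay above 0 and BAX and PMAIP1 below 0 on the log2 scale. BBC3, the BH3-only protein PUMA, had 21.9, 25.3 and 27.0 CPM in auxin and 17.3, 19.3 and 23.2 CPM in DMSO. Its groups overlapped between 21.9 and 23.2 CPM, and its log2 fold change was 0.31 (adjusted p = 0.172, SE 0.12, DESeq2 adjusted p = 0.0545). PMAIP1, the BH3-only protein NOXA, had 84.2, 98.0 and 98.7 CPM in auxin and 96.6, 107 and 100.6 CPM in DMSO, with a log2 fold change of -0.11 (adjusted p = 0.347, SE 0.07). BAX, the pore-forming protein on which both act, had 87.7, 88.0 and 92.9 CPM in auxin and 93.1, 94.2 and 102 CPM in DMSO. Its groups were separated by a gap of less than 1 CPM, and its log2 fold change was -0.11 (adjusted p = 0.237, SE 0.05).

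Of the death receptors, FAS had 17.3, 19.9 and 20.1 CPM in auxin and 14.4, 17.1 and 17.0 CPM in DMSO. Its lowest auxin library and highest DMSO library were nearly equal, and its log2 fold change was 0.24 (adjusted p = 0.145, SE 0.08). FAS overlaps STAMBPL1 on the same strand and ACTA2 on the other. TNFRSF10B, the TRAIL receptor DR5, had 232, 249 and 253 CPM in auxin and 222, 246 and 229.9 CPM in DMSO (log2 fold change 0.07, adjusted p = 0.437, SE 0.05). ZMAT3, an RNA-binding zinc finger protein, had 31.5, 38.5 and 36.8 CPM in auxin and 30.9, 32.1 and 32.0 CPM in DMSO (log2 fold change 0.17, adjusted p = 0.202, SE 0.07). The groups of both genes overlapped. PHLDA3, an inhibitor of AKT, had a log2 fold change of 0.08, the exonuclease gene AEN one of -0.01 and TRIAP1, a mitochondrial inhibitor of apoptosis, one of -0.01, with adjusted p between 0.618 and 0.924.

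The 4 genes of DNA repair all had positive log2 fold changes (median 0.11), and edgeR called 0 of them. Of the 4, 2 had an unadjusted p under 0.05 (DDB2 and POLH), as did 3324 of all 15765 genes tested. DESeq2 called 0 and limma on log2(TPM + 1) called 1 (POLH, adjusted p = 0.0490). Over all genes, edgeR called 4.32% higher and 2.46% lower, DESeq2 5.04% and 5.35%, and limma 2.66% and 0.203%. DDB2, the damage sensor of nucleotide excision repair in chromatin, had 53.2, 59.0 and 63.0 CPM in auxin and 52.1, 51.7 and 54.2 CPM in DMSO. Auxin replicate 1 lay within the DMSO range and the other auxin libraries lay above it (log2 fold change 0.15, adjusted p = 0.201, SE 0.06). XPC, which recognises distorted DNA in the same pathway, had 32.8, 29.8 and 28.0 CPM in auxin and 32.5, 27.0 and 27.7 CPM in DMSO, so that the 2 replicate 1 libraries were nearly equal (log2 fold change 0.05, adjusted p = 0.771, SE 0.08). RRM2B, the p53-induced subunit of ribonucleotide reductase, had 94.7, 92.7 and 93.3 CPM in auxin and 88.6, 90.2 and 85.8 CPM in DMSO. Its groups did not overlap and its difference was small (log2 fold change 0.08, adjusted p = 0.256, SE 0.04). POLH, the translesion polymerase eta, had a log2 fold change of 0.14 (adjusted p = 0.185, SE 0.06).

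Among the 5 genes that feed back on p53, edgeR called 0, with 2 at an unadjusted p under 0.05 (MDM2 and PPM1D). DESeq2 called 0 of the 5 and limma on log2(TPM + 1) called 1 (PPM1D, adjusted p = 0.0890). Over all 15765 genes, 3324 had an unadjusted p under 0.05. EdgeR called 4.32% of them higher and 2.46% lower, DESeq2 5.04% and 5.35%, and limma 2.66% and 0.203%. MDM2, the ubiquitin ligase of p53 (chromosome 12, 68808177 to 68845544), had 137, 143 and 141 CPM in auxin and 131, 131 and 130.2 CPM in DMSO. All auxin libraries were above all DMSO libraries, and the log2 fold change was 0.10 (SE 0.04, 1.07-fold, 95% interval 0.02 to 0.19, adjusted p = 0.162). With an offset for effective length, MDM2 had a log2 fold change of -0.02 (adjusted p = 0.839). MDM4, its partner, had 41.7, 46.5 and 43.5 CPM in auxin and 41.3, 43.2 and 40.8 CPM in DMSO, and its groups overlapped (log2 fold change 0.07, adjusted p = 0.471, SE 0.05). PPM1D, the phosphatase WIP1 that dephosphorylates p53, had 68.9, 75.3 and 74.3 CPM in auxin and 61.5, 62.8 and 69.7 CPM in DMSO (log2 fold change 0.17, adjusted p = 0.132, SE 0.06). Its lowest auxin library was below its highest DMSO library. CCNG1, cyclin G1, had 133, 129 and 124 CPM in auxin and 129.8, 127 and 126 CPM in DMSO, with the auxin range around the DMSO range (log2 fold change 0.01, adjusted p = 0.900, SE 0.04). FBXO22, an F-box protein, had a log2 fold change of -0.04 (adjusted p = 0.623, SE 0.04).

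MDM2 has an upstream promoter (P1) and a p53-responsive promoter in its first intron (P2), whose sequence is printed above. Of the annotated MDM2 transcripts, 6 start in the first exon, at P1, and 25 between there and the end of the second exon, counted here as P2, and those that start further downstream were left out. The models that begin inside the second exon may be incomplete at their start. P2 transcripts held 8.12, 7.71 and 6.74% of the counts of P1 and P2 transcripts in auxin and 8.11, 6.46 and 3.78% in DMSO. The means were 7.53 ± 0.71% in auxin and 6.12 ± 2.19% in DMSO (n = 3 each, ± SD), and a 2-sided exact permutation test gave p = 0.4, with 0.1 the lowest value that n = 3 per group allows. The groups overlapped and the DMSO libraries spread more widely than the auxin libraries, so a difference in promoter use was not detectable here. Most MDM2 counts, 88.5%, went to MDM2-202, a P1 transcript, with 117, 122 and 120 CPM in auxin and 110, 109.8 and 116 CPM in DMSO.

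Among the 6 genes of metabolism and stress, edgeR called 0, with 1 at an unadjusted p under 0.05 (SESN1). DESeq2 called 1 (SESN1, adjusted p = 0.0359) and limma on log2(TPM + 1) called 0. Over all 15765 genes, 3324 had an unadjusted p under 0.05. EdgeR called 4.32% of them higher and 2.46% lower, DESeq2 5.04% and 5.35%, and limma 2.66% and 0.203%. SESN1, a sestrin that restrains mTORC1, had 17.1, 19.9 and 20.9 CPM in auxin and 14.2, 15.3 and 17.2 CPM in DMSO. Its lowest auxin and highest DMSO library were nearly equal, and its log2 fold change was 0.31 (1.24-fold, adjusted p = 0.101, SE 0.09). SESN2, the related leucine sensor, had 9.08, 8.72 and 8.55 CPM in auxin and 8.28, 8.48 and 8.46 CPM in DMSO, a log2 fold change of 0.06 (adjusted p = 0.643, SE 0.07). TIGAR, a fructose bisphosphatase that slows glycolysis, had 56.3, 65.2 and 64.1 CPM in auxin and 61.5, 62.0 and 64.0 CPM in DMSO, a log2 fold change of -0.01 (adjusted p = 0.919, SE 0.06). The auxin libraries of TIGAR lay on both sides of the DMSO libraries. FDXR, the reductase that feeds electrons to mitochondrial P450 enzymes, and TP53I3, a quinone oxidoreductase, had log2 fold changes of 0.06 (SE 0.06) and -0.09 (SE 0.05), with adjusted p of 0.557 and 0.384. SPATA18, a mitochondrial quality control gene, was close to the limit of detection (log2 fold change -0.69, adjusted p = 0.305, SE 0.36).

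The libraries of each group differed among themselves in a way that many of these genes shared. In 15 of the 31 genes (48.4%), replicate 1 was the lowest library of its group both in auxin and in DMSO, which held for 22.1% of all tested genes. These were CDKN1A, GADD45A, PLK3, GDF15, BAX, BBC3, PMAIP1, FAS, TNFRSF10B, PHLDA3, ZMAT3, PPM1D, SESN1, TIGAR and FDXR. Replicate 1 was the highest in both groups in 2 genes, XPC and CCNG1 (6.45%, against 22.0% of all genes). In CDKN1A, replicate 1 had 293 CPM in auxin and 267 CPM in DMSO, while replicate 3 had 384 CPM in auxin and 360.5 CPM in DMSO, so that same-numbered libraries differed by less than replicates 1 and 3 of either group did. PLK3 showed the same order, with 31.5 CPM for auxin replicate 1 and 32.3 CPM for DMSO replicate 1, against 38.1 and 39.7 CPM for the other auxin libraries and 43.8 and 42.3 CPM for the other DMSO libraries. What set replicate 1 apart was not tested.

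**Figure D4:**
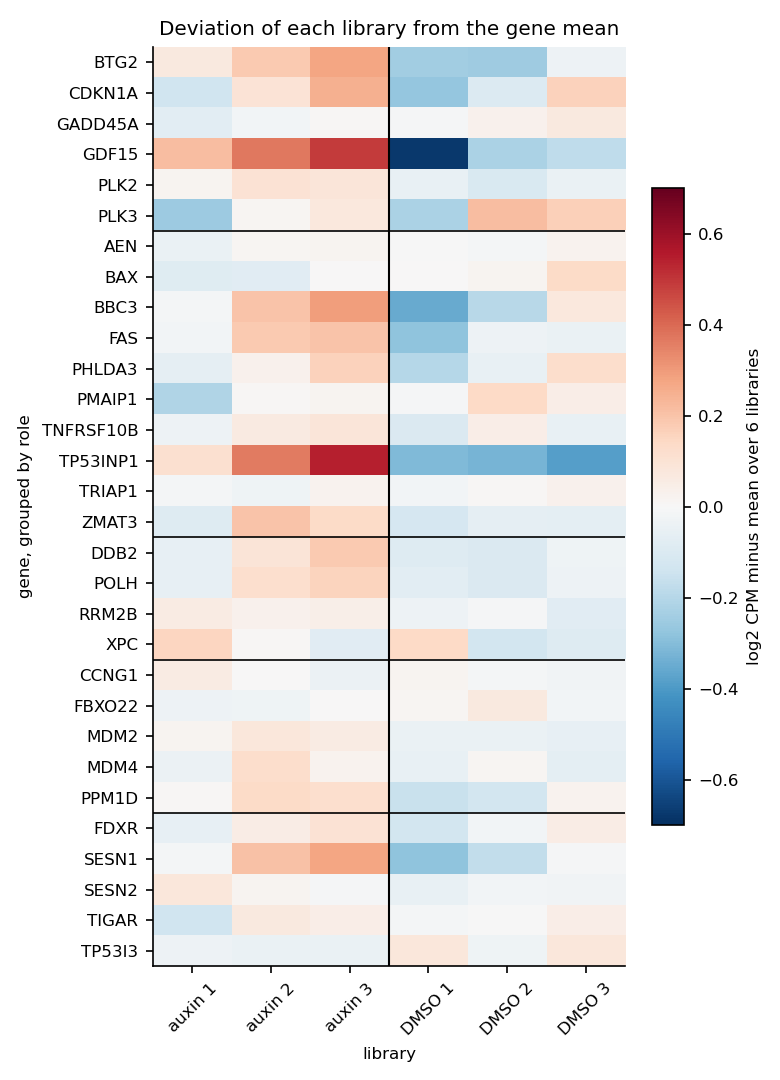
Log2 CPM of 30 genes in each library minus the gene's mean over the 6 libraries, grouped by role, with red for above and blue for below (SPATA18 is left out for its low counts). GDF15 and TP53INP1 are red throughout auxin and blue throughout DMSO, whereas CDKN1A, PLK3 and PHLDA3 are blue in replicate 1 of both groups.

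With replicates 2 and 3 alone, 11 of 30 tested genes were called higher and 1 lower in edgeR, where 8.24% of all tested genes were called higher and 8.09% lower. Those higher were BTG2, PLK2, GDF15, BBC3, FAS, TP53INP1, ZMAT3, DDB2, POLH, PPM1D and SESN1. The gene that was lower was PLK3 (log2 fold change -0.16, adjusted p = 0.0709). Among the genes called here but not with all 6 libraries, log2 fold changes were 0.22 for ZMAT3 (adjusted p = 0.0213), 0.19 for DDB2 (0.0337), 0.19 for POLH (0.0251) and 0.31 for SESN1 (0.0176). CDKN1A (0.13, adjusted p = 0.553) and MDM2 (0.11, adjusted p = 0.146) were not called with these 4 libraries. Both were called, as higher, only where the replicate number was a block (CDKN1A 0.14, adjusted p = 0.00557, and MDM2 0.10, adjusted p = 0.0205), and numbers were not shown to pair the libraries. Without auxin replicate 1 alone, 9 of 31 were called, all higher, where 7.13% of all tested genes were called and 70.5% of these were higher, and GDF15 was not among the 9.

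At the level of transcripts, 272 transcripts of the 31 genes were listed and 171 passed the filter. EdgeR called 0 of them (smallest adjusted p = 0.467), where 0.00256% of 78049 tested transcripts were called at all. An unadjusted p under 0.05 was reached by 18, of which 16 were higher in auxin, and by 5129 of the 78049 transcripts tested. DESeq2 called 6, all higher, against a background of 1.47% of transcripts in either direction. They were TP53INP1-202, GDF15-201, BTG2-201, PLK2-201, PPM1D-202 and BBC3-203, the last encoding 1 of 3 PUMA transcripts of similar abundance. In all, 7 of the 31 genes overlap another annotated gene on the same strand, among them GDF15 with the microRNA gene MIR3189 and FAS with STAMBPL1. On the other strand, 17 overlap a gene. These are overlaps of whole gene spans, introns included, and their effect on the counts was not tested.

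TP53INP1 had 2 main transcripts, whose values differed. TP53INP1-202 had 7.97, 10.5 and 10.97 CPM in auxin and 5.44, 4.09 and 1.95 CPM in DMSO, without overlap (log2 fold change 1.36, SE 0.37, edgeR adjusted p = 0.644, DESeq2 adjusted p = 0.0199). TP53INP1-201 had 5.97, 5.84 and 7.63 CPM in auxin and 4.89, 5.90 and 7.97 CPM in DMSO, with overlapping groups (log2 fold change 0.05, SE 0.21, edgeR adjusted p = 0.985). They end at the same base and begin 12 bases apart, and reads common to both were divided between them by kallisto, so the split is less certain than the sum, and the difference between the transcripts was not tested. In DMSO the transcripts ran in opposite order over the libraries, while their sum varied by less than 1 CPM. The GDF15 and BTG2 counts came almost wholly from single transcripts, 99.0% from GDF15-201 (169.9, 186 and 203 CPM in auxin, against 90.9, 122 and 130.0 CPM in DMSO) and 99.3% from BTG2-201 (51.8, 55.3 and 59.4 CPM in auxin, against 41.4, 40.5 and 48.5 CPM in DMSO).

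**Figure D5:**
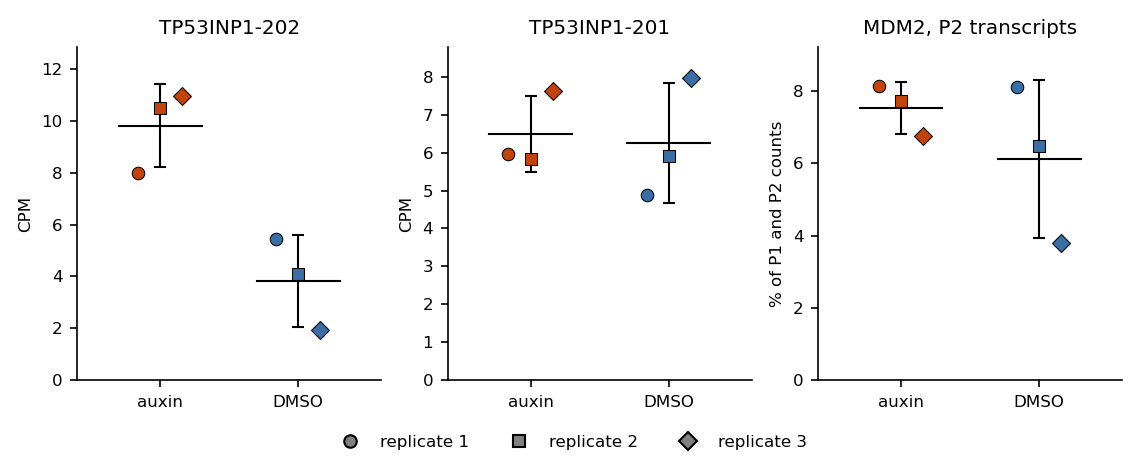
CPM of TP53INP1-202 and TP53INP1-201 and the percent of MDM2 P1 and P2 counts that lay in P2 transcripts, by library, auxin beside DMSO, with a line for the mean and a bar for the SD (n = 3). TP53INP1-202 separates the groups (7.97 CPM or more in auxin, 5.44 CPM or less in DMSO), while the other panels overlap.

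Of 17 regulators upstream of p53, 1 rose and 1 fell in edgeR, against 4.32% of all tested genes called higher and 2.46% lower. HIPK2, a kinase that phosphorylates p53, rose by 0.54 on the log2 scale (adjusted p = 0.0233, SE 0.09), and RCHY1, the p53 ubiquitin ligase PIRH2, had a log2 fold change of -0.19 (adjusted p = 0.0739, SE 0.05). An unadjusted p under 0.05 was reached by 1 regulator that was higher in auxin and 4 that were lower. Of all 15765 genes tested, 1817 reached it higher and 1507 lower. DESeq2 called 1 higher and 3 lower (background 5.04% and 5.35%). Those lower were RCHY1 and the ribosomal protein genes RPL11 (DESeq2 adjusted p = 0.0253) and RPL5 (DESeq2 adjusted p = 0.0849), whose free products bind MDM2. Other ribosomal protein mRNAs shared this direction: all 12 examined had negative log2 fold changes (median -0.15), and DESeq2 called 9 of them lower. Limma on log2(TPM + 1) called 2 higher and 0 lower (background 2.66% and 0.203%). EdgeR with replicates 2 and 3 alone called 2 higher and 4 lower (background 8.24% and 8.09%).

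Of 49 further p53 targets tested, 3 rose and 1 fell in edgeR, against 4.32% of all tested genes called higher and 2.46% lower. Their median log2 fold change was 0.04. The counts were 5 higher and 4 lower in DESeq2 (background 5.04% and 5.35%) and 2 and 0 in limma on log2(TPM + 1) (background 2.66% and 0.203%). With replicates 2 and 3 alone they were 8 and 5 (background 8.24% and 8.09%). TGFA, a ligand of the EGF receptor, had 81.8, 73.3 and 72.9 CPM in auxin and 56.8, 56.8 and 57.6 CPM in DMSO (log2 fold change 0.41, adjusted p = 0.00302). APAF1, the apoptosome scaffold, rose by 0.29 (adjusted p = 0.0326) and ACER2, a ceramidase, by 0.58 (adjusted p = 0.0367). Of 16 cell cycle genes that p53 represses through p21 and the DREAM complex, 1 rose (TOP2A, 0.23, adjusted p = 0.0324) and 0 fell, against the same 4.32% and 2.46%. Their median was -0.0029, and an unadjusted p under 0.05 was reached by 2 genes higher and 1 lower in auxin. DESeq2 called 2 of the 16 higher and 0 lower (background 5.04% and 5.35%). Limma on log2(TPM + 1) also called 2 higher and 0 lower (background 2.66% and 0.203%). With replicates 2 and 3 alone, edgeR called 3 higher and 3 lower, against 8.24% of all tested genes higher and 8.09% lower. Those higher were TOP2A (log2 fold change 0.27, adjusted p = 0.00218), CDK1 (0.22, adjusted p = 0.0100) and CENPF (0.25, adjusted p = 0.0488). Those lower were the mitotic regulator CDC20 (log2 fold change -0.18, adjusted p = 0.0327) and the cyclin genes CCNB2 (-0.16, adjusted p = 0.0551) and CCNB1 (-0.20, adjusted p = 0.0756).

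Fold changes in these libraries also followed transcript length. The median log2 fold change was -0.06 in the fifth of genes with the shortest transcripts (median effective length 736 bases) and 0.09 in that with the longest (4822 bases). The shortest held GADD45A, GDF15, BAX and TRIAP1, with a median of -0.04 over these 4, and the longest held TP53INP1, ZMAT3, POLH, RRM2B, MDM2 and MDM4, with a median of 0.12 over these 6. With the length trend of each library removed, the log2 fold changes were 0.60 for TP53INP1, 0.76 for GDF15 and 0.34 for BTG2 and each was still called. The median of the 31 was then 0.04, against 0.003 over all genes. Of 12 ribosomal protein mRNAs, examined as a possible sign of RNA quality, 6 fell in edgeR, against 2.46% of all tested genes. All 12 had negative log2 fold changes (median -0.15), and limma on log2(TPM + 1) called 0 of them. The 7 mitochondrial mRNAs examined had a median of 0.01. The part of either in the p53 pathway values was not tested.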

How the data were processed

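Poly(A)-selected, strand-marking mRNA libraries were sequenced in paired ends. Per the study's methods, the authors assigned reads to human transcripts of the hg38 build with kallisto and tested transcripts with sleuth. The sources used here do not give the transcript release or the strand setting. The deposited tables hold the authors' estimated counts per transcript, not normalised and not pooled, with lengths and effective lengths. Shared reads are divided between transcripts, so counts need not be whole (45.6% of the values lay within 1e-06 of a whole number), and isoform values are less certain than gene sums.

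Transcript identifiers were matched to GENCODE release 44, which gave a gene to 178869 of 199240 transcripts, holding 96.2 to 96.3% of the counts of each library. Gene values are rounded sums of these counts over 36415 genes. Groups and replicate numbers came from the sample labels. The main gene test was edgeR's quasi-likelihood F test (version 4.0.16 in R 4.3.3, robust, TMM, default filter at 10 counts and a total of 15), with Benjamini-Hochberg adjustment over 15765 genes and calls at an adjusted p under 0.1, the study's threshold. Treatment was the only term. Transcripts were tested likewise. The scripts were tested on simulated data. Alternatives were DESeq2 1.42.0, its size factors in edgeR, no filter, each library left out, a replicate block, replicates 2 and 3 alone, effective length offsets, removal of each library's trend on length or on length and GC content, and limma 3.58.1 on log2(TPM + 1), where fold changes of low genes are understated. TPM were computed from the counts and effective lengths, without TMM correction, also in the limma fit. The TMM factors of the other fits were 1.009 to 1.020 in auxin and 0.985 to 0.990 in DMSO. P2 use of MDM2 was compared by an exact permutation test.

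The 31 genes, their roles and the other gene lists were chosen with earlier results of these data known. All 31 genes are named. Values of each library are given for called genes and for a list of central members, and in the other lists called genes are named. RPL5, RPL11, CDC20, CCNB1, CCNB2, CDK1 and CENPF, called only in alternatives, were named after their values were seen. Some genes of the other lists are not reported here. The study calls the replicates independent without saying whether they were separate cultures, so p-values speak for the spread of these libraries. Depth was 52.5 to 68.4 M counts per library. In bulk libraries, fewer cells expressing a gene and less mRNA per cell cannot be told apart.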

Additional observations from a re-analysis of the deposited data

How the results depend on the processing

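TP53INP1 was called in all 15 alternatives, BTG2 in 13 and GDF15 in 9 (without a low-count filter GDF15 had an adjusted p of 0.174). The log2 fold changes of these 3 genes stayed positive throughout. Of the fold changes under other settings, 391 kept both direction and side of the threshold, 44 crossed into a call, 8 lost one and 21 changed sign, with no call in either fit. The number of the 31 genes called was 3 with edgeR. It was 6 with DESeq2, 5 without a low-count filter, 12 with replicates 2 and 3 alone, 5 with the length and GC trend removed and 6 on log2(TPM + 1), and leaving out 1 library gave 1 to 9. Over all genes 1069 were called, 63.7% of them higher. The count was 1638 with DESeq2 (48.5% higher), 2587 with replicates 2 and 3 alone (50.4%), 366 with the effective length offset (76.5%), 592 with the length trend removed (57.1%) and 452 on log2(TPM + 1) (92.9%), and leaving out 1 library gave 183 to 1566 (48.0 to 87.4%). The median of the 31 log2 fold changes was 0.07, and 0.15 on log2(TPM + 1), where the median of all genes was 0.05. DESeq2 called 6 transcripts of these genes, against 0 with edgeR. The cause of these differences was not tested.

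The replicate numbers were not taken to pair the libraries in the main fit. Deviations from the group means correlated at 0.18, 0.05 and 0.07 between libraries numbered 1, 2 and 3, although each library correlated best with its own number. With the number as a replicate block, 18 of the 31 genes were called (15 higher, CDKN1A and MDM2 among them, with BAX, PMAIP1 and PLK3 lower), against 30.9% of all genes (4867, of which 52.6% were higher), and 0 transcripts of the 31 genes.

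Signs changed as follows, none of them called. On log2(TPM + 1) the log2 values were 0.00445 for GADD45A, 0.0592 for AEN, 0.0475 for TRIAP1, 0.000592 for FBXO22, 0.0384 for TIGAR and 0.0109 for TP53I3. With the length trend removed they were 0.0386 for TRIAP1 and -0.039 for MDM4, and with length and GC removed 0.0433 for TRIAP1 and -0.033 for MDM4. With the effective length offset MDM2 was at -0.0239, and with replicates 2 and 3 alone CCNG1 was at -0.00902 and TIGAR at 0.0261. Over the libraries left out, AEN ranged from -0.027 to 0.011, PHLDA3 from -0.0037 to 0.17, XPC from -0.012 to 0.13, CCNG1 from -0.013 to 0.037 and TIGAR from -0.054 to 0.048. At this depth, differences in SPATA18 (at most 17 counts a library) could not be judged. SEs of the other genes were 0.04 to 0.14 with 3 libraries a group.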
